A study of Danio rerio with 4 samples.

Results

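Chromosome 22 held 1641 of the 54036 chromatin intervals counted in non-cardiomyocytes (nonCMs) of zebrafish hearts, taken as every interval placed on that chromosome. Of these, 113 start between 6 and 9 Mb, called the window here, and 1528 lie on the rest of the chromosome. Both the chromosome and the window were picked from the difference between Treatment and WT libraries in these same counts. The contrast of the window with the rest is therefore given as a description, with no test. After the filter on low counts 1531 intervals were tested, 97 in the window and 1434 on the rest, and 110 were not, 16 in the window and 94 on the rest. The untested intervals held at most 47 reads over the 4 libraries, and 52 of them had 0 reads in all 4.

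ATAC-seq uses the Tn5 transposase, which inserts sequencing adapters where DNA is not wrapped in nucleosomes. Promoters and enhancers in use give short stretches with many reads, and the chromatin between them gives few reads per kb. NonCMs comprise the epicardial, endothelial, fibroblast and immune cells of the heart. In zebrafish they respond to amputation of the ventricle and support the regrowth of heart muscle, and TNFα is a cytokine of the inflammatory part of that response. In a bulk library of mixed cells, fewer cells with an open region and less opening per cell cannot be told apart.

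The series has 2 Treatment and 2 WT libraries of nonCMs from adult hearts, all labelled 7 d. The labels give every fish a wild type genotype, place all cells in the injury area and add amputation for Treatment alone. The study's text instead sets hearts of a germline tnfα mutant against wild-type hearts, both amputated, so the genotype and the injury state of each group cannot be told from these sources. The label names are kept, and the number of fish behind a library is not given in the sources used here. Nothing in the labels says that libraries of a group came from separate fish, so p-values measure the spread between these libraries, which may be technical. Reads in intervals summed to 14736856 and 16558109 in the Treatment libraries and to 16128000 and 16822284 in the WT libraries. Chromosome 22 took 2.18% and 2.19% of them in Treatment, against 2.15% and 2.17% in WT. A tested interval had a median of 106 reads per library on chromosome 22, of 69 in the window and of 130 over all chromosomes. Values per library are given below in the order replicate 1 and replicate 2. Reads are not independent molecules, so counting intervals and floors cover counting error only.

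The intervals of chromosome 22 reached 39.1255 Mb and covered 22.4 Mb. They are tracts of very unequal width more than point-like sites: the median width was 3610 bp, the quartiles were 580 and 13745 bp, and the widest spanned 398.578 kb. Narrow intervals (at most 1 kb) numbered 561, wide intervals (over 5 kb) 737, and 343 fell between these limits. Overlaps numbered 0, and 591 intervals ended exactly where the next began. The median width on the other chromosomes was 2106 bp.

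Calls were more frequent on chromosome 22 than over the whole table, which is what it was picked for. In edgeR's quasi-likelihood test over all intervals, at an adjusted p under 0.05, 44 of its 1531 tested intervals were called (2.87%), against 1.16% of all tested intervals and 1.1% of those outside the chromosome. Of the 44, 23 were lower in Treatment, where 0.721% of all intervals were called lower, and 21 were higher, where 0.438% were called higher. The groups did not overlap in any of the 44, which selection by this test favors and which adds no support. Over all tested intervals, both Treatment libraries lay below both WT libraries in 21.4% and above them in 19.9%. At an unadjusted p under 0.05, 115 were lower and 105 higher, where 6.68% and 4.51% of all intervals were. The calls sat in 19 of the 40 bins of 1 Mb along the chromosome, and 3 bins held calls in both directions. When scaling rested on intervals of at most 1 kb alone, the split was 20 lower and 32 higher (38.5% lower, against 52.3%), and the median of all intervals moved to 0.11 on the log2 scale.

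**Figure D1:**
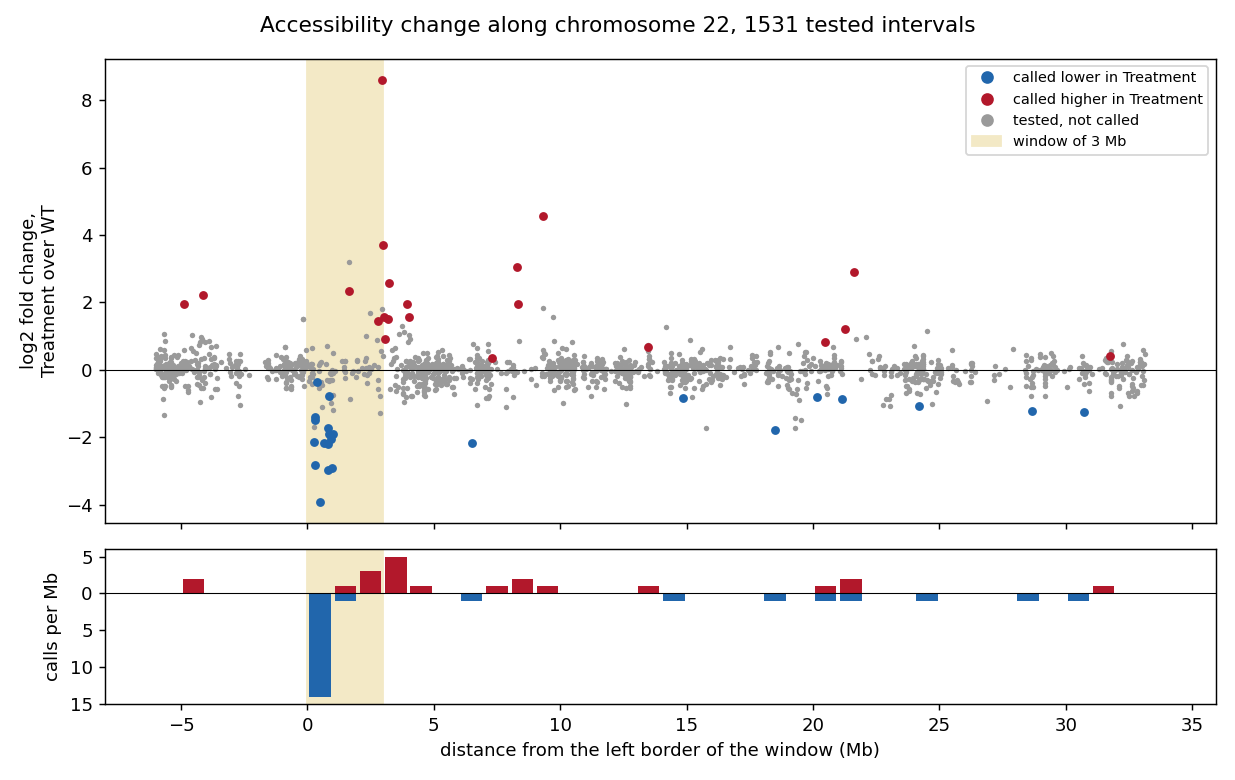
Distance along chromosome 22 from the window's left border in Mb against the log2 fold change (Treatment over WT) of each tested interval, with called intervals in color and the window shaded, above the number of calls per 1-Mb bin, lower calls drawn down and higher calls up. The first bin of the window (6 to 7 Mb) holds 14 lower calls and the bin past its right border (9 to 10 Mb) 5 higher calls; the topmost point is an interval with 0 WT reads, whose plotted height depends on the prior count.

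The window was thin in reads. It held 6.44 and 7.49 reads per kb of interval in the Treatment libraries and 7.96 and 8.20 in the WT libraries. The rest of the chromosome held 15.01 and 16.9 reads per kb in Treatment and 16.1 and 17.0 in WT. Density in the window was thus less than the mean of the rest in each of the 4 libraries. Such density was not particular to the window. The 2 to 3 Mb bin had 5.42 and 6.09 reads per kb in Treatment and 5.41 and 5.68 in WT, with 0 calls of 29 tested. The 27 to 28 Mb bin had 4.17 and 4.54 reads per kb in Treatment and 4.68 and 4.93 in WT, with 3 calls of 11 tested. These densities are raw reads, not scaled for library size. The ratio of window to rest was 0.437 ± 0.010 in Treatment and 0.489 ± 0.009 in WT (SD, n = 2 each), with values of 0.429 and 0.444 in Treatment and 0.495 and 0.482 in WT. The Treatment ratios lay below both WT ratios, and since the window was picked for this contrast no test is given.

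The window also held a larger share of wide intervals. Wide intervals made up 64 of the 113 in the window (56.6%) and 673 of 1528 on the rest (44.0%), and narrow ones 21 (18.6%) and 540 (35.3%). Within a width class the window was thinner as well: narrow intervals had a median of 32.2 reads per kb in the window and 169 on the rest, and wide ones 6.56 and 13.5. These medians include untested intervals, which were 10 of the 21 narrow ones in the window and 57 of 540 on the rest. Pooled over narrow intervals, the window held 74.5 and 74.5 reads per kb in Treatment and 104 and 109 in WT. The rest held 163 and 172 in Treatment and 180 and 210 in WT. Narrow intervals were also scarcer per unit length, at 7 per Mb in the window and 14.9 per Mb on the rest. The share of sequence covered by intervals was alike, 55.8% and 57.3%.

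**Figure D2:**
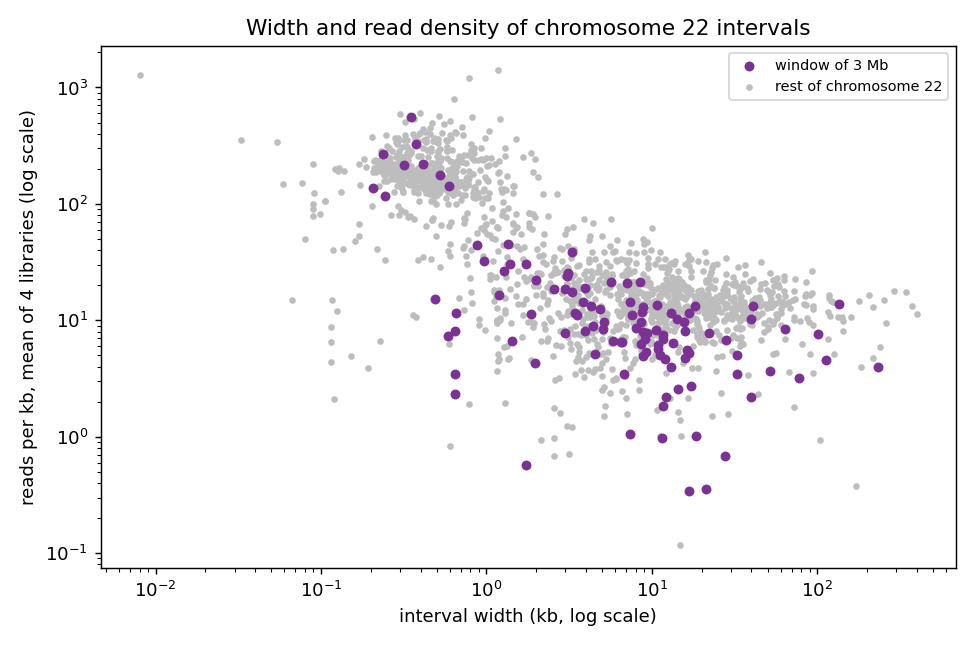
Interval width in kb against read density in reads per kb (mean of the 4 libraries), both on log axes, with the window in color and the rest in gray. Calls are not marked. In the window 15 of the 19 calls are wide intervals. In the group with more reads, which is not drawn apart, 14 of those 15 lie below the wide-interval median of 12.9 reads per kb.

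Changes in the window leaned lower and were larger. Of its 97 tested intervals, 15 were lower and 4 higher in Treatment (19.6% called), and of the 1434 on the rest, 8 were lower and 17 higher (1.74%), beside 1.16% over all intervals. The window thus held 43.2% of the calls on the chromosome and 6.34% of its tested intervals. The study itself compared its conditions with DESeq2. With that program the counts here were 8 lower and 2 higher in the window. On the whole chromosome they were 13 lower and 12 higher, all among the 44. The window calls that DESeq2 did not make start at 6284038, 6293563, 6300311, 6320862, 6802048, 6809366, 6840743, 7624599 and 8790643, and the named ones on the rest at 14304677, 14338178, 27189979 and 30173723. Without Treatment replicate 1 there were 13 higher calls on the chromosome, 2 in the window and 11 on the rest. Without Treatment replicate 2 there were 11 higher calls on the rest, and without WT replicate 1 there were 15 lower calls on the rest.

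Log2 fold changes had a median of -0.08 in the window, with quartiles of -0.53 and 0.16, and 0.01 on the rest, with quartiles of -0.19 and 0.17. Sizes differed more than the medians did. A change of at least 2-fold was fitted for 24 of 97 intervals in the window (24.7%), 17 lower and 7 higher, and for 42 of 1434 on the rest (2.93%). The difference of the medians was -0.096, and -0.03 without Treatment replicate 1. Per library, the log2 values of each interval were centred across the 4 libraries. The window median minus that of the rest was then -0.10 and -0.03 in Treatment and 0.11 and 0.02 in WT. Both Treatment values lay below both WT values, with replicates that were unequal within each group. Centring makes the groups mirror each other, so these values restate the contrast for which the window was picked.

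Uncalled intervals of the window did not lean: 41 were negative and 37 positive, with a median of -0.03. Their median size of change was 0.227 on the log2 scale, against 0.174 among uncalled intervals of the rest. By width it was 0.347 against 0.258 for narrow intervals and 0.160 against 0.121 for wide ones. Between these widths it was smaller in the window, 0.235 against 0.260. Replicates also differed more in the window, with a median difference between the Treatment replicates of 0.267 in the window and 0.180 on the rest, and of 0.233 and 0.197 between the WT replicates. Among narrow intervals they differed less in the window, by 0.159 against 0.258 in Treatment and 0.226 against 0.274 in WT. In the wider classes they differed more in the window. Counts were lower in the window too, and the part of depth in the size of the changes was not tested. With calls included, Treatment libraries lay wholly below WT libraries in 34 tested window intervals (35.1%) and wholly above in 18 (18.6%). On the rest they did in 303 (21.1%) and 322 (22.5%), and over all tested intervals in 21.4% and 19.9%. The window counts take in its 15 lower and 4 higher calls, where selection favors the lack of overlap.

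The 15 lower calls of the window all lay in one stretch of 743 kb, chr22:6273581-7016690 on GRCz11, whose borders were set by the calls after their values were seen. The stretch held 37 tested intervals, of which 15 were lower and 0 higher. Its intervals had 2383 and 2706 reads in the Treatment libraries and 4264 and 4204 in the WT libraries. The called intervals had 3.46 and 4.01 reads per kb in Treatment and 8.76 and 8.72 in WT. Between them stood 22 tested intervals that were not called, with 9.01 and 10.1 reads per kb in Treatment and 11.4 and 11.0 in WT. Of these 16 were negative and 6 positive, with a median of -0.20. In the 1 Mb before the stretch 54 intervals were tested and 0 called, with 11.5 and 12.9 reads per kb in Treatment and 11.8 and 12.8 in WT.

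**Figure D3:**
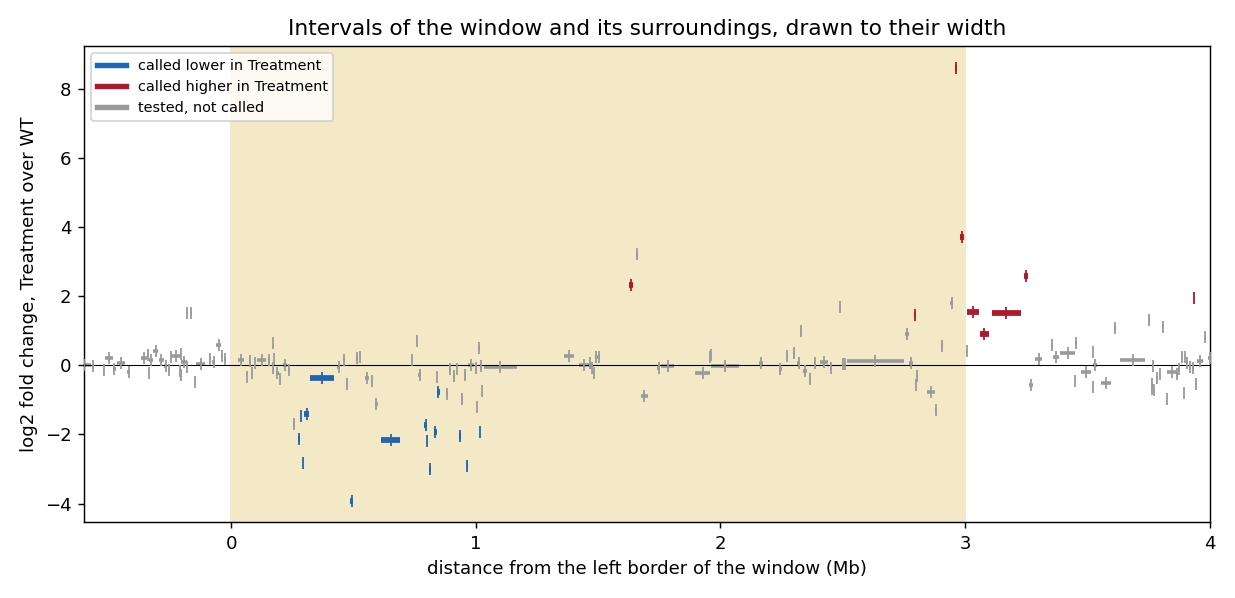
Distance from the window's left border in Mb against log2 fold change (Treatment over WT) around the window, each interval drawn as a line of its own length with a tick at its middle, called ones in color, the window shaded. The lower calls end before the higher calls begin, and higher calls continue past the right border, after 1 uncalled interval; the interval with 0 WT reads is drawn at its fitted value, which depends on the prior count.

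Among window calls at least 2-fold lower, the one with the most reads was chr22:6613020-6690829, a tract of 77.8 kb with 80 and 91 reads in the Treatment libraries and 413 and 402 in the WT libraries. The 2 groups stood far apart and the replicates of each lay close together. Its log2 fold change was -2.17 ± 0.17 (SE), with an adjusted p of 8.75e-13. The largest loss was chr22:6487048-6499077, 12.03 kb long, with 5 and 8 reads in Treatment and 100 and 110 in WT. The fitted change was -3.91 ± 0.39 log2 units (SE, adjusted p 1.78e-09). The interval passed the filter on low counts through the WT libraries alone, so these values add no support. The tested intervals on either side of it, 11.629 kb before and 13.391 kb after, were not called. They had log2 fold changes of -0.53 and 0.20. No tested interval covered the sequence between, so where the loss ends is not known.

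The left end of the stretch was a run of 5 neighbouring lower calls over 148 kb, from 6273581 to 6421158. Neighbouring calls are those with no other tested interval between them, whatever their distance. Its first interval, chr22:6273581-6282189, had 17 and 21 reads in Treatment and 80 and 97 in WT, a change of -2.13 ± 0.33 log2 units (SE, adjusted p 5.35e-05). The second, chr22:6284038-6287488, had 25 and 15 reads in Treatment and 57 and 62 in WT (-1.48 ± 0.37, adjusted p 0.031). That call was lost without Treatment replicate 2, WT replicate 1 or WT replicate 2. The third, chr22:6293563-6294749, had 1 and 8 reads in Treatment and 34 and 35 in WT (-2.84 ± 0.59, adjusted p 0.00428), with a change of -2.10, no longer called, without Treatment replicate 1 and of -4.79 without Treatment replicate 2.

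Treatment replicates stood apart in the fourth, chr22:6300311-6316979, which had 22 and 71 reads in Treatment and 127 and 132 in WT. The fitted change was -1.42 ± 0.29 log2 units (SE, adjusted p 0.00366), -0.87 and not called without Treatment replicate 1, and -2.39 without Treatment replicate 2. The run ended in the widest interval called lower in the window, chr22:6320862-6421158 of 100.3 kb, with 607 and 681 reads in Treatment and 897 and 848 in WT. The groups did not overlap, but the change was the smallest of the 15, -0.36 ± 0.09 (SE, adjusted p 0.0285). It was not called without Treatment replicate 1, Treatment replicate 2 or WT replicate 1, nor with DESeq2.

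A second run of 4 neighbouring lower calls covered 51.6 kb, from 6788761 to 6840368. The interval chr22:6788761-6801876 had 19 and 28 reads in Treatment and 80 and 83 in WT (-1.72 ± 0.33, adjusted p 0.00134). Next to it, chr22:6802048-6802253 was 206 bp long and had 19 and 0 reads in Treatment and 48 and 46 in WT. All Treatment reads here came from replicate 1. The fitted change was -2.19 ± 0.55 log2 units (SE, adjusted p 0.0306), -3.94 with limma voom, and -1.14 and not called without Treatment replicate 2. Without Treatment replicate 1 the remaining Treatment library had 0 reads.

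The third interval of this run, chr22:6809366-6818528, had 3 and 18 reads in Treatment and 90 and 86 in WT, a change of -2.99 ± 0.41 log2 units (SE, adjusted p 3.80e-06) that was -4.66 without Treatment replicate 2 and -2.29 without Treatment replicate 1. The fourth, chr22:6829466-6840368, had 30 and 19 reads in Treatment and 109 and 88 in WT (-1.92 ± 0.32, adjusted p 0.000197). Directly against it lay a narrow and dense interval, chr22:6840369-6840742, with 116 and 91 reads in Treatment and 117 and 163 in WT. At 326 reads per kb it was the second densest narrow interval of the window, and it was not called (-0.34, adjusted p 0.599). The wide interval on its other side, chr22:6840743-6854956, was called and is named here after its values were seen, with 99 and 110 reads in Treatment and 180 and 195 in WT (-0.76, adjusted p 0.0353). That call was lost whichever library was left out. A dense site with no call thus stood between 2 thinner tracts that were called lower.

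Near 7 Mb no lower call had a called neighbour. The interval chr22:6932299-6941098 had 16 and 16 reads in Treatment and 78 and 63 in WT (-2.06 ± 0.37, adjusted p 0.000503). In chr22:6962924-6968756 there were 6 and 11 reads in Treatment and 68 and 69 in WT (-2.92 ± 0.42, adjusted p 9.78e-06). All 4 of their nearest tested neighbours were uncalled, with log2 fold changes of -0.11, -0.99, -0.29 and -0.0047 in order of position. The last lower call, chr22:7016101-7016690, was narrow, 590 bp, with 29 and 38 reads in Treatment and 118 and 150 in WT (-1.92 ± 0.27, adjusted p 8.44e-06). It touched an uncalled interval at each end. The one before it, chr22:7009062-7016100, had 154 and 182 reads in Treatment and 122 and 130 in WT, a log2 fold change of 0.49 in the other direction. The one after it, chr22:7016691-7025113, had 150 and 194 reads in Treatment and 185 and 185 in WT (-0.03, with the other sign when scaling rested on intervals of at most 1 kb or without Treatment replicate 1 or WT replicate 1).

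**Figure D4:**
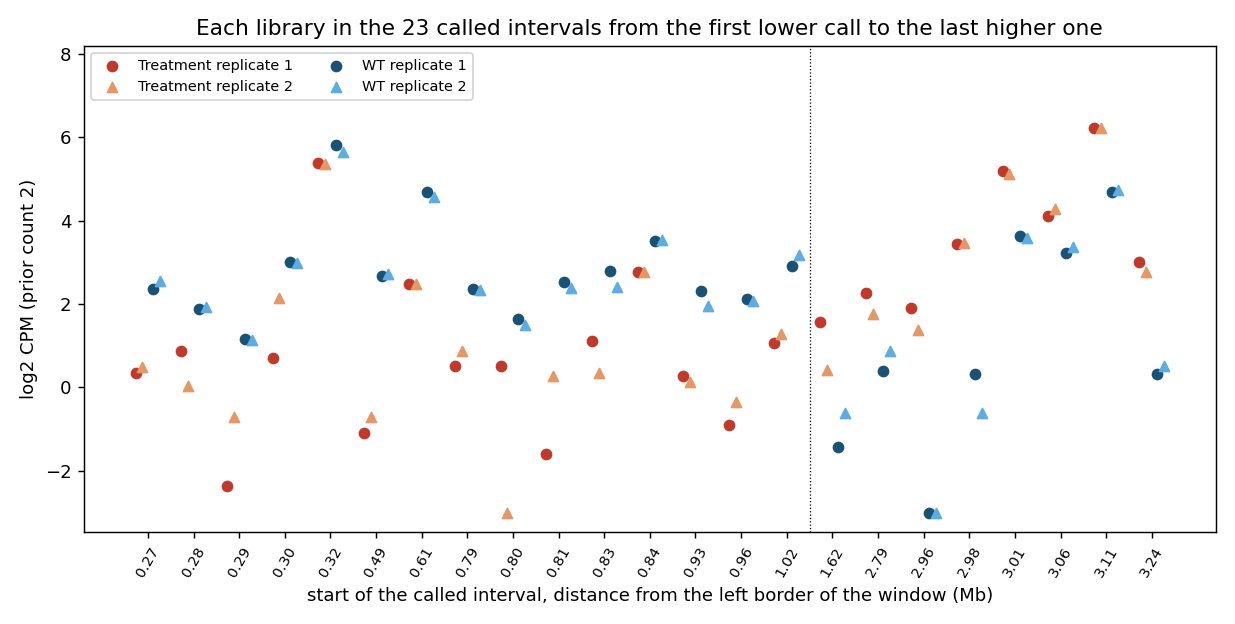
Log2 CPM (prior count 2) in each library for the 15 lower calls of the window, left of the dotted line, and for the 8 higher calls between 7624599 and 9255288, right of it, in order of position given as distance from the window's left border; the 4 right-most intervals lie past the right border. Both Treatment libraries lie below both WT libraries in all 15 and above them in all 8, which selection as calls favors. Over all tested intervals the shares are 21.4% below and 19.9% above.

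No call lay in the next 608 kb, where 10 tested intervals split into 5 negative and 5 positive. They had 10.4 and 12.7 reads per kb in Treatment and 12.3 and 12.1 in WT. From there to 9255288 lay a stretch of 1631 kb that begins and ends with a higher call. Its right end was chosen by hand after the calls were seen, and higher calls occur beyond it. In the stretch 40 intervals were tested, 8 were higher and 0 lower. The called intervals had 8.84 and 9.67 reads per kb in Treatment and 3.11 and 3.39 in WT. The 32 uncalled intervals among them had 5.25 and 5.98 reads per kb in Treatment and 5.55 and 6.15 in WT, 13 negative and 19 positive. Density in the uncalled intervals of this stretch thus overlapped between the groups. The absence of lower calls held at the threshold of 0.05 only. At an adjusted p under 0.1, chr22:8843870-8876699 and chr22:8878680-8883097 were lower, with log2 fold changes of -0.78 and -1.29. Those starting at 7655271, 8489400 and 8939933 were higher at that threshold. In the 1 Mb after the stretch 55 intervals were tested, 2 were higher and 0 lower, where 0.438% of all intervals were called higher.

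The first higher call, chr22:7624599-7642967, had 42 and 20 reads in Treatment and 4 and 9 in WT. It passed the filter on low counts through the Treatment libraries alone, so its values add no support. The change of 2.33 ± 0.57 log2 units (SE, adjusted p 0.0229) was 1.60 without Treatment replicate 1 and 1.91 without WT replicate 1, and neither was called. Without WT replicate 2 it was 2.98. The second, chr22:8790643-8797226, named after its values were seen, had 69 and 54 reads in Treatment and 19 and 29 in WT (1.44, adjusted p 0.0252), a call lost without Treatment replicate 1 or WT replicate 1. Both were separated from other calls by intervals that were not called.

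The other 6 higher calls lay within 296 kb across the right border, a span whose ends were set by these calls after they were seen. It held 7 tested intervals, of which 6 were called, a share that this choice of ends makes high. Over all tested intervals 0.438% were called higher. Reads in those 7 intervals were 2241 and 2476 in Treatment and 808 and 873 in WT. The leftmost, chr22:8959490-8966295, had 53 and 41 reads in Treatment and 0 and 0 in WT. Against a floor of 3 reads over both WT libraries it was at least 33.1-fold higher in Treatment (adjusted p 9.64e-08). It passed the filter on low counts through the Treatment libraries alone, so these values add no support. It was one of 2 intervals on the chromosome with at most 3 reads in one group and at least 15 in each library of the other, and in both the group with few reads was WT. Of the 52395 intervals on the other chromosomes, 23 had so few reads in WT and 12 in Treatment. The next higher call, chr22:8979955-8996337, had 157 and 179 reads in Treatment and 18 and 9 in WT (3.70 ± 0.31, adjusted p 1.12e-11), and 4.32 without WT replicate 1.

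The right border of the window fell inside this group of higher calls. The first interval past it, chr22:9003090-9009188, was the only one of the 7 not called, with 31 and 11 reads in Treatment and 13 and 21 in WT, overlapping groups and an adjusted p of 0.833. The 4 after it were neighbours over 246 kb. The largest of them, chr22:9110998-9226882, was 116 kb long and had 1099 and 1239 reads in Treatment and 414 and 448 in WT. The fitted change was 1.52 ± 0.09 log2 units (SE, adjusted p 2.15e-16), with replicates that lay close together in both groups.

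On its left, chr22:9009496-9057108 had 531 and 575 reads in Treatment and 198 and 200 in WT (1.55 ± 0.13, adjusted p 7.97e-12). Between them, chr22:9060699-9096248 had 254 and 320 reads in Treatment and 147 and 173 in WT, the smallest change of the 4 (0.92 ± 0.16, adjusted p 0.000409). The right end, chr22:9239831-9255288, had 116 and 111 reads in Treatment and 18 and 22 in WT (2.58 ± 0.31, adjusted p 1.95e-07). At the left border neither neighbour was called: chr22:5971404-5977530 outside it had 76 and 76 reads in Treatment and 70 and 72 in WT, and chr22:6026595-6054749 inside it had 209 and 178 in Treatment and 169 and 202 in WT.

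**Figure D5:**
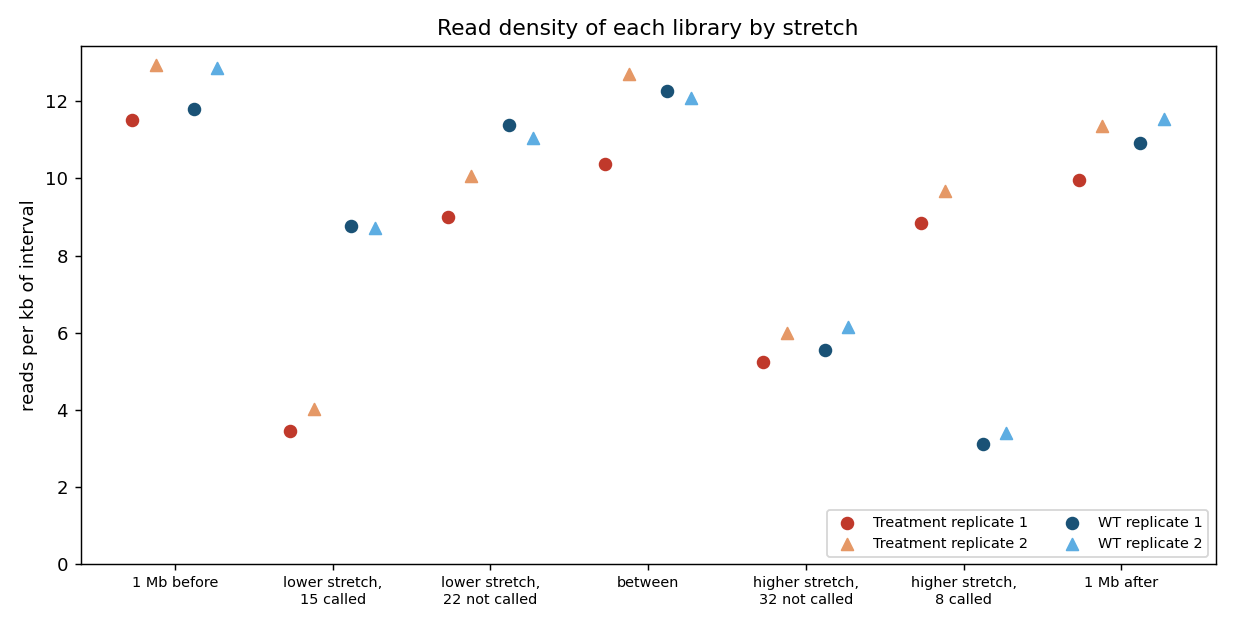
Reads per kb of interval in each library, Treatment beside WT, for the stretches around the window and for called and uncalled intervals within them. Called intervals of the lower stretch have 3.46 and 4.01 reads per kb in Treatment and 8.76 and 8.72 in WT, and those of the higher stretch 8.84 and 9.67 in Treatment and 3.11 and 3.39 in WT.

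Elsewhere on the chromosome there were 17 higher and 8 lower calls of 1434 tested. That split rested on WT replicate 1, without which it was 18 higher and 15 lower, and the higher calls numbered 11 without either Treatment replicate. The median log2 fold change was 1.55 among the 17 and -1.15 among the 8, and 14 of the 17 were wide intervals. Only the calls past the right border and 2 pairs were neighbours. The pair near 14.3 Mb began with chr22:14304677-14309817, with 24 and 25 reads in Treatment and 2 and 4 in WT (3.06 ± 0.66, adjusted p 0.00664). It passed the filter on low counts through the Treatment libraries alone, so its values add no support. Its partner chr22:14338178-14346575 had 36 and 45 reads in Treatment and 9 and 13 in WT (1.94 ± 0.45, adjusted p 0.0148). Both calls were lost without any one of Treatment replicate 1, Treatment replicate 2 or WT replicate 1.

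The other pair began with chr22:27189979-27362439, a tract of 172 kb with 86 and 91 reads in Treatment and 46 and 35 in WT (1.20 ± 0.29, adjusted p 0.0226). That call was lost without Treatment replicate 1, Treatment replicate 2 or WT replicate 2. The other member of the pair, chr22:27599775-27622854, had 50 and 72 reads in Treatment and 6 and 11 in WT (2.90 ± 0.43, adjusted p 2.38e-05), and its call held with each library left out. From end to end the pair spanned 433 kb, with no other tested interval between its members. These tracts held few reads for their length.

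The single interval with the largest fitted change on the rest was chr22:15308526-15314114, with 21 and 30 reads in Treatment and 2 and 0 in WT. The ratio of reads, scaled for library size, was 26.9 (95% counting interval 7.08 to 228, adjusted p 0.000579). Without WT replicate 1 the remaining WT library had 0 reads. This interval, too, passed the filter on low counts through the Treatment libraries alone. The fitted change was 3.63 without WT replicate 2, against 4.58 with all libraries, values that depend on the prior count. Near the left end of the chromosome, chr22:1868983-1897752 had 69 and 77 reads in Treatment and 15 and 18 in WT (2.22 ± 0.36, adjusted p 9.12e-05). Also there, chr22:1110855-1120875 had 61 and 86 reads in Treatment and 13 and 27 in WT (1.95 ± 0.36, adjusted p 0.000753). The 2 were not neighbours.

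Of 483 narrow intervals tested on the rest, 3 were lower and 1 higher, a share of 0.828% beside 1.16% over all intervals. The higher one, chr22:9936450-9936687 of 238 bp, had 59 and 89 reads in Treatment and 17 and 23 in WT (1.95 ± 0.35, adjusted p 0.000503). The most changed lower one, chr22:12502043-12502353 of 311 bp, had 13 and 14 reads in Treatment and 56 and 73 in WT (-2.17 ± 0.39, adjusted p 0.000503). Among wide intervals the most changed lower call was chr22:24491627-24500269, with 26 and 15 reads in Treatment and 83 and 69 in WT (-1.80 ± 0.36, adjusted p 0.0021), lost without Treatment replicate 2.

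The 3 densest narrow intervals of the window and the 3 densest of the rest held 0 calls, where 1.16% of all intervals were called. So few intervals cannot be told from that share. Among tested intervals of at least 50 reads per kb, 2 of 9 were called in the window and 6 of 533 on the rest. In the window, chr22:7959459-7959809 held 561 reads per kb, with 193 and 225 reads in Treatment and 204 and 165 in WT (0.25, adjusted p 0.631). Its close neighbour chr22:7960340-7960577 held 269 reads per kb, with 67 and 70 reads in Treatment and 56 and 63 in WT (0.28). The densest on the rest, chr22:13280820-13281607, held 1209 reads per kb, with 850 and 1013 reads in Treatment and 1020 and 927 in WT (0.01). The other 2 of the rest, chr22:10850435-10851068 and chr22:32228627-32229020, had log2 fold changes of 0.09 and -0.37. After scaling for library size, both Treatment libraries lay above both WT libraries in the pair of the window and in chr22:10850435-10851068, as in 19.9% of all tested intervals. The groups overlapped in the third of the window, chr22:6840369-6840742, and in chr22:13280820-13281607 and chr22:32228627-32229020 of the rest.

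Most calls lay at the thin end of the density scale. In the window, intervals under 5 reads per kb gave 4 lower and 2 higher calls of 20 tested, those from 5 to 10 gave 6 and 2 of 32, and those from 10 to 20 gave 3 and 0 of 23. Those from 20 to 50 gave 0 calls of 13, and those of at least 50 gave 2 lower calls of 9. On the rest, intervals under 5 reads per kb gave 0 lower and 8 higher calls of 63, and those from 5 to 10 gave 4 and 4 of 172. Those from 10 to 20 gave 0 and 3 of 438, those from 20 to 50 gave 0 calls of 228, and those of at least 50 gave 4 and 2 of 533. Of the 15 wide calls in the window, 14 lay below 12.9 reads per kb, the median of wide intervals on the chromosome, in the group with more reads, and so did 37 of the 47 wide uncalled intervals (78.7%). On the rest 16 of 18 wide calls did, and 265 of 650 wide uncalled ones (40.8%).

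The calling threshold fell between intervals of unlike size. The call nearest to it was chr22:30173723-30174115, with 32 and 54 reads in Treatment and 96 and 94 in WT (-1.07, adjusted p 0.0482), lost without Treatment replicate 1, WT replicate 1 or WT replicate 2. Just outside, chr22:30348019-30361078 had 434 and 484 reads in Treatment and 351 and 363 in WT (0.44, adjusted p 0.0523). The groups did not overlap in either, where Treatment lay wholly below WT in 21.4% and wholly above in 19.9% of all tested intervals.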

How the data were processed

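ATAC-seq was measured in 4 nonCM libraries, 2 Treatment and 2 WT. According to the methods and the submitters' processing notes, the authors trimmed reads (Trim Galore), checked them (FastQC), aligned them to GRCz11 with Bowtie2, and removed mitochondrial reads. Only uniquely mapped reads were kept, so sequence with near-identical copies receives few reads. Genrich called peaks (q 0.05) once per condition, using both replicates together. The authors then used DESeq2 to find peaks that differed in accessibility between conditions. How peak sets were joined, the counting program, duplicate removal and Tn5 shifting are not given in the sources used here. The deposited values are raw, unscaled read counts for each interval. Columns not used numbered 0. Starts had 1 added, so coordinates count from 1.

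All intervals were filtered (filterByExpr, minimum count 10), and an interval can pass this filter on the reads of a single group. They were scaled by TMM and tested with edgeR 4.0.16 (glmQLFit, glmQLFTest, group as the only term) in R 4.3.3. P-values were adjusted by Benjamini-Hochberg over all tested intervals, and intervals were called at an adjusted p under 0.05. The SE of a log2 fold change was its absolute value over the root of F. Density is raw reads per kb of interval. The test was checked on simulated data. A median of 106 reads per library and interval sets the precision.

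Named intervals are the 15 window calls and the 10 other calls with the largest changes, all runs of neighbouring calls, the 3 densest narrow intervals of each part, and the intervals at the window's borders and nearest the threshold. The other window calls and the intervals touching a window call were added after their values were seen. The members and lists were chosen with earlier results of these data known. Alternatives were 6 other scalings, 2 filters, DESeq2 1.42.0, limma 3.58.1 (voom), a replicate block, each library left out, 2 thresholds, 2 other windows and 3 choices of intervals for density. No gene, exon or intron was assigned, no sequence is printed, and cell type loci were not used here, for want of an annotation of the same build.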

Additional observations from a re-analysis of the deposited data

How the results depend on the processing

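Among the 34 named calls direction was kept in all 492 comparisons, and 20 were made under every alternative that tested them. The groups did not overlap in any of the 44 calls, which favors a kept direction when a library is left out. The kept direction therefore adds no support. Among the 12 named uncalled intervals the sign turned in 9 of 179 comparisons. Leaving out a library put 6026595 at -0.063 to 0.34, 7016691 at -0.14 to 0.063, 9003090 at -0.62 to 1.03 and 13280820 at -0.090 to 0.13, and the first 3 turned sign without Treatment replicate 1. Scaling on intervals of at most 1 kb put 7016691 at 0.082, and 13280820 was at -0.0093 with upper quartile scaling and at -0.020 with scaling on those over 20 kb. On chromosome 22 there were 23 lower and 21 higher calls, of which the window held 15 and 4. Leaving out a library gave 17 to 29 lower and 13 to 21 higher calls on the chromosome, and 11 to 14 and 2 to 4 in the window. It moved the difference of medians (-0.096) to between -0.136 and -0.032 and the density ratio (0.463) to between 0.452 and 0.474. Treatment replicate 1 set the lowest number of higher calls, 13 and 2, and the -0.032. With scaling on intervals of at most 1 kb there were 32 higher calls, 8 in the window. A mean of at least 50 counts left 15 lower and 10 higher, 9 and 1 in the window, and tests fewer intervals. DESeq2 gave 13 and 12, with 8 and 2 in the window; the cause was not tested. An adjusted p under 0.1 gave 18 lower and 7 higher window calls. An unadjusted p under 0.05 gave 115 and 105, with 24 and 11 in the window. A window of 5 to 10 Mb had 9 higher calls, a difference of medians of 0.00058 and a density ratio of 0.558. One of 6.5 to 8.5 Mb had 9 lower and 1 higher calls and a ratio of 0.529. The ratio was 0.497 for intervals of at most 1 kb, 0.490 for those over 5 kb and 0.472 for tested ones.

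Replicate numbers did not pair the libraries (correlation of their deviations -0.0621 on chromosome 22), and the fit with the replicate block gave 24 lower and 23 higher calls, 15 and 6 in the window, with all 44 calls kept. Depth was a median of 69 reads per library and tested interval in the window, with 2 libraries a group, and the smallest detectable change was not measured.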

Other observations

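Intervals of exactly 117 bp, the most frequent width on chromosome 22 and noticed after the values were seen, were at 0 reads in all 4 libraries in 9 of 9 cases on chromosome 22, of which 3 lay in the window, and in 145 of 215 cases on the other chromosomes. Over all widths the share of intervals at 0 in every library was 3.17% on chromosome 22 and 2.97% elsewhere. When the genome was divided into 463 tiles of 3 Mb, the 6 to 9 Mb tile of chromosome 22 had rank 3 by number of calls, with 19 of 97 tested intervals. It came after the 3 to 6 Mb tile of chromosome 7, with 27 of 388, and the 0 to 3 Mb tile of chromosome 3, with 21 of 81.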
